A study of Mus musculus with 8 samples.

Results

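The R-spondin, Lgr and Lrp receptor axis sets how strongly a cell responds to Wnt ligands. Its 10 genes were taken by symbol from the 18770 genes of the expression table, and the symbols were chosen by role: R-spondin ligands, Lgr receptors, Wnt co-receptors and the ligases that R-spondins restrain. The study asked how alpinetin (AP), a plant flavonoid, acts on hair regrowth after depilation. Messenger RNA was measured in dorsal skin of wildtype male C57BL/6 mice (C57BL/6J in the study's methods), 7 to 8 weeks of age, on day 4 (D4) after depilation. The AP group of 4 libraries received AP at 3 mg/ml in 20 µl of 65% ethanol on the skin, and the vehicle group (VC) of 4 libraries received the same volume of 65% ethanol alone. Interfollicular epidermis had been taken off, leaving dermis with hair follicles, and both groups share depilation and ethanol. The labels number the mice in another way than the table numbers its columns, so a column is tied to a group and not to a mouse, and libraries are named here by group and column (VC.1, AP.1 and so on), with values of single libraries given in that order. By their titles the libraries come from separately numbered samples, and by the study's description each group was made up of separate mice.

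Wnt ligands signal through a Frizzled receptor paired with a co-receptor, Lrp5 or Lrp6. The ligases Znrf3 and Rnf43 mark these receptors for removal from the cell surface, and an R-spondin bound to Lgr4, Lgr5 or Lgr6 draws the ligases away, so that more receptor stays in place. In skin, R-spondins are known from dermal cells, and Lgr5 and Lgr6 are known as stem cell genes of the hair follicle.

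VC libraries held 6454563 to 7264151 reads on the listed genes and AP libraries 8507783 to 11190113. Mitochondrially encoded genes took 42.1% to 54.3% of the reads in VC and 5.32% to 11.1% in AP, so 3 reads, taken as the floor, equal 4.10 to 5.63 normalized counts in VC and 1.49 to 2.18 in AP. A normalized count is a read count divided by the library's size factor. Floors and intervals from reads would cover counting error only. Over all 15964 genes tested with limma, 1011 (6.33%) were higher in AP and 639 (4.0%) lower at an adjusted p under 0.05. With libraries scaled to their total counts the split was 8657 higher and 70 lower, and the median over all genes of the log2 fold change was 0.90 instead of 0.06.

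All 10 genes passed the filter on low values. At the same threshold 1 of them, Lrp5, was higher in AP (background 6.33%), and 3 of them, Rspo1, Rspo3 and Rspo4, were lower (background 4.0%). The remaining 6 did not pass. With libraries scaled to their total counts the 7 genes other than the R-spondins were higher (background 54.2%), among them Lgr4 (limma adjusted p = 0.0217), Lgr5 (0.0166), Lgr6 (0.00366), Lrp6 (0.00144), Znrf3 (0.0228) and Rnf43 (0.0334), and no R-spondin passed. The same 4 genes were those whose AP and VC libraries did not overlap, against 19.2% of all genes tested. In either direction 4 of the 10 passed, beside 10.3% of all genes. The median of the 10 log2 fold changes was 0.44, beside 0.06 over all genes, with 7 of the values above 0.

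Rspo1 (ENSMUSG00000028871, chr4:124986430-125009099, plus strand, coordinates in mm10 from GENCODE M21) encodes a secreted R-spondin. Its normalized counts were 213, 327, 395 and 283 in the VC libraries and 120, 71.7, 136 and 107 in the AP libraries. All AP libraries lay below all VC libraries, and the highest AP value was well under the lowest VC value. The mean was 304 ± 76.3 (SD, n = 4) in VC and 109 ± 27.4 (SD, n = 4) in AP. Rspo1 fell by 1.48 on the log2 scale of value plus 1 (SE 0.25, 95% interval -2.03 to -0.93, limma adjusted p = 0.0103), which is 2.79-fold lower. Its call held with any library left out, with an adjusted p of 0.00936 to 0.0335.

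Rspo3 (ENSMUSG00000019880, chr10:29452416-29535867, minus strand) encodes the R-spondin best known from blood vessel development. Its normalized counts were 92.8, 160, 274 and 174 in the VC libraries and 74.0, 50.7, 62.3 and 52.9 in the AP libraries. The groups did not overlap, but VC.1 stood close to AP.1, and VC spread far more widely (175 ± 75.0, SD, n = 4) than AP (60.0 ± 10.6, SD, n = 4). Rspo3 fell by 1.45 (SE 0.32, 95% interval -2.14 to -0.75, limma adjusted p = 0.0212). The adjusted p was 0.0591 without AP.2, 0.0633 without AP.3, 0.0614 without AP.4 and 0.0508 without the intensity trend, within a range of 1.4e-04 to 0.217 over the alternatives tried. Of its exonic bases 404 (13.1%) lie under the antisense gene Gm48159, and since the sources used here do not say whether counting used strand, reads there cannot be told apart. Gm48159 itself had 33.5 normalized counts in VC and 18.2 in AP on average, and its difference did not pass (limma adjusted p = 0.305).

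Rspo4 (ENSMUSG00000032852, chr2:151842927-151874668, plus strand) encodes the R-spondin known for its part in nail formation. Its normalized counts were 54.6, 51.7, 54.6 and 90.0 in the VC libraries and 24.7, 30.7, 14.9 and 26.5 in the AP libraries, from 30 to 57 reads per library. The VC libraries VC.1 to VC.3 were nearly level, VC.4 stood above them, and no AP library reached the lowest VC value. Rspo4 fell by 1.34 (SE 0.35, 95% interval -2.11 to -0.58, limma adjusted p = 0.0356). This call was the least steady of the 4. It held in 2 of 8 fits with a library left out, and was lost without VC.1 (0.0531), VC.3 (0.0510), VC.4 (0.0718), AP.2 (0.0653), AP.3 (0.114) or AP.4 (0.0817), with non-mitochondrial reads drawn down to 3080758 per library (0.0760) and with the trend on the longest transcript removed (0.0502), within a range of 0.00196 to 0.251 over all alternatives.

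The 3 ligands had log2 fold changes close to each other, from -1.48 to -1.34, and each lay within the lowest 2.67% of all genes tested. Their summed normalized counts were 360, 538, 724 and 548 in the VC libraries and 219, 153, 213 and 186 in the AP libraries, so the sums did not overlap either. The ratio of Rspo1 to Rspo3 was 1.85 ± 0.390 (SD, n = 4) in VC and 1.81 ± 0.352 (SD, n = 4) in AP, overlapping throughout (exact 2-sided permutation test over 70 assignments, p = 0.771). Under total-count scaling Rspo1, Rspo3 and Rspo4 stayed below 0, at -0.61, -0.58 and -0.50, without passing the test (limma adjusted p = 0.126, 0.217 and 0.251). Relative to the median of all genes, which that scaling moves to 0.90, they stood at -1.51, -1.49 and -1.40. Rspo2, the R-spondin outside the 10 genes, had 45.5, 48.8, 83.3 and 30.0 normalized counts across VC and 7.98, 30.2, 29.9 and 8.58 across AP. AP.2 passed VC.4 by a narrow margin, and the difference of -1.55 (SE 0.53) did not pass the test (limma adjusted p = 0.0781, range 0.0447 to 0.311 over the alternatives).

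**Figure D1:**
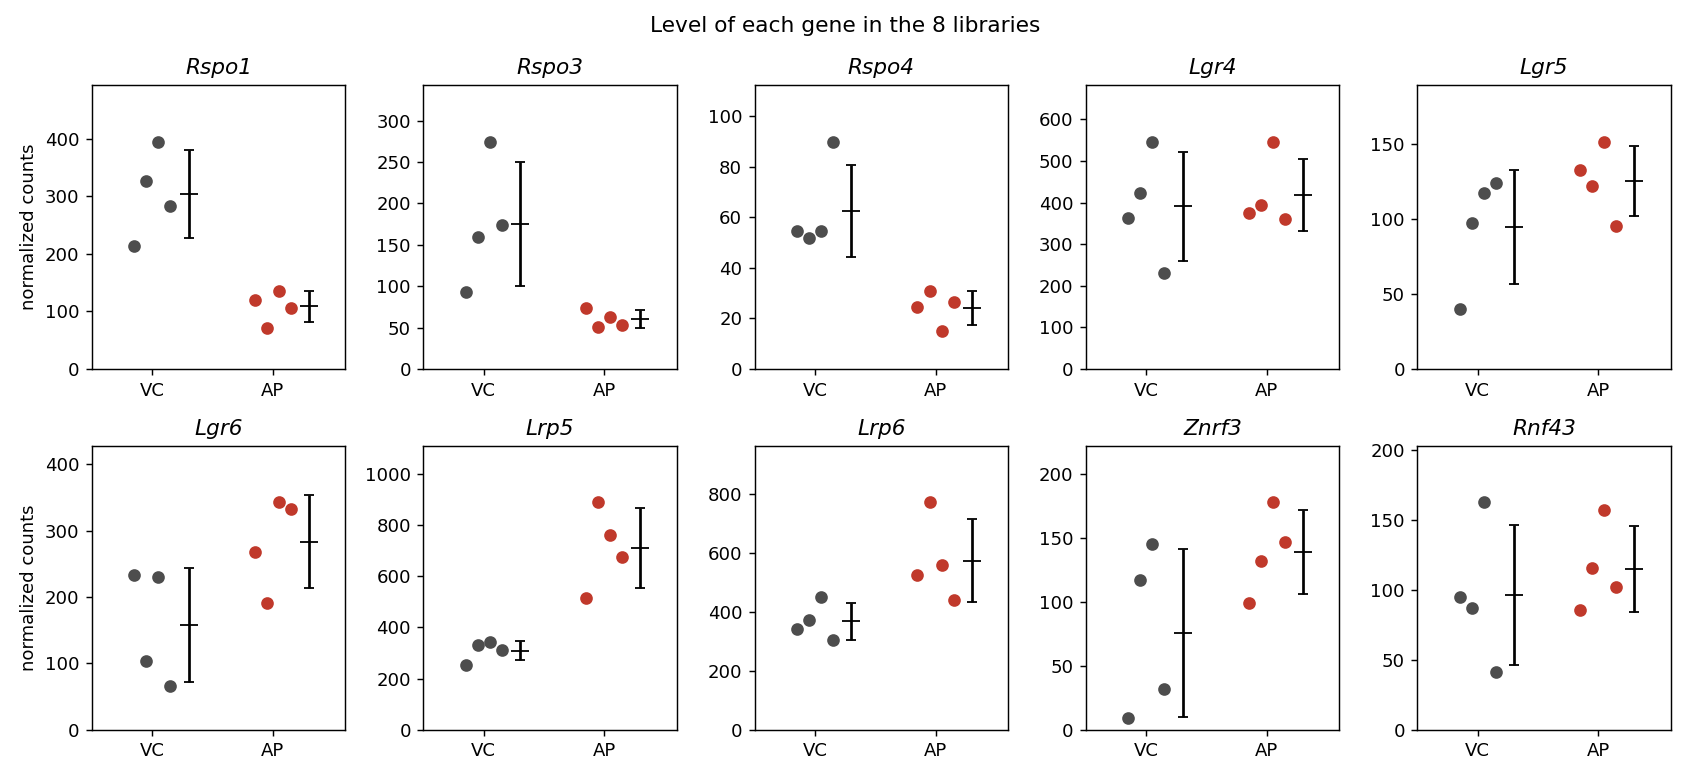
Normalized counts of the 10 genes in each library, with VC libraries in grey, AP libraries in red and bars for the mean and SD of 4 libraries, on linear axes that start at 0. Rspo1, Rspo3 and Rspo4 lie lower in all AP libraries than in any VC library and Lrp5 lies higher, while the groups overlap for the other 6 genes.

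The Lgr receptors bind R-spondins at the cell surface. Lgr4 (ENSMUSG00000050199, chr2:109917647-110014257, plus strand), the broadly expressed receptor of the family, had 364, 423, 546 and 231 normalized counts across VC and 375, 394, 546 and 360 across AP. The groups covered nearly the same range, apart from the low VC.4. The difference of 0.14 (SE 0.25, 95% interval -0.40 to 0.69) did not pass (limma adjusted p = 0.729), and the interval takes in changes of either sign. Its sign turned to -0.09 without VC.4 and to -0.09 with the length trend removed, and it was 0.01 without AP.3 and 0.33 without VC.3.

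Lgr5 (ENSMUSG00000020140, chr10:115450311-115587780, minus strand), a marker of the lower bulge and hair germ, had 40.0, 97.5, 117 and 124 normalized counts across VC and 133, 122, 151 and 95.1 across AP. VC.1 was low, and the other VC libraries lay within the AP range. The difference of 0.50 (SE 0.35, 95% interval -0.26 to 1.26) did not pass (limma adjusted p = 0.352), and it was 0.14 without VC.1.

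Lgr6 (ENSMUSG00000042793, chr1:134983301-135105276, minus strand), a marker of stem cells in the upper follicle and epidermis, had 233, 103, 229 and 65.6 normalized counts across VC and 268, 191, 342 and 333 across AP. VC split into a high pair and a low pair, and AP.2 fell between them while the other AP libraries lay above all of VC. The difference of 0.99 (SE 0.38, 95% interval 0.15 to 1.83) did not pass over all genes (limma adjusted p = 0.110), and it was 0.64 without VC.4. Against Lgr4 in the same library, the ratio of Lgr6 counts was 0.640, 0.245, 0.420 and 0.285 in the VC libraries and 0.714, 0.485, 0.627 and 0.924 in the AP libraries. VC.1 lay above AP.2 and AP.3, and the log2 difference of the ratio was 0.85 (exact 2-sided permutation test, p = 0.0857, adjusted over 5 ratios 0.190). For Lgr5 against Lgr4 the log2 difference was 0.36 (exact 2-sided permutation test, p = 0.543, adjusted 0.679), ranging from 0.00 without VC.1 to 0.76 without VC.4.

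Summed over the 3 receptors, the normalized counts were 637, 624, 893 and 420 in the VC libraries and 775, 706, 1039 and 787 in the AP libraries. VC.3 exceeded 3 of the 4 AP libraries. Counts of the 3 ligands per 100 counts of the 3 receptors were 88.6 ± 30.7 (SD, n = 4) in VC and 23.5 ± 3.41 (SD, n = 4) in AP. The highest AP library, at 28.3, did not reach the lowest VC library, at 56.6, and this quotient, chosen after the values were seen and not tested, does not change with a library's scaling. It sets ligands with longest transcripts of 1834 to 3085 nt over receptors with 4793 to 6675 nt. The quotient was not corrected for the trend with transcript length described below.

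Lrp5 (ENSMUSG00000024913, chr19:3584828-3686564, minus strand) encodes a single-pass Wnt co-receptor that is also known for its part in bone mass. Its normalized counts were 255, 330, 341 and 311 in the VC libraries and 517, 889, 760 and 675 in the AP libraries. VC libraries were close together, AP libraries were more spread, and the lowest of them lay far above the highest VC library. The mean was 309 ± 38.4 (SD, n = 4) in VC and 710 ± 156 (SD, n = 4) in AP. Lrp5 rose by 1.18 (SE 0.19, 95% interval 0.77 to 1.59, limma adjusted p = 0.00884), which is 2.26-fold. The call held in all 23 alternative fits, with an adjusted p of 3.03e-06 to 0.0365.

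Lrp6 (ENSMUSG00000030201, chr6:134446476-134566965, minus strand), the second co-receptor, had 342, 372, 449 and 304 normalized counts across VC and 524, 770, 557 and 440 across AP. AP.4 lay just under VC.3, and apart from that pair the AP libraries were the higher ones. The difference of 0.63 (SE 0.20, 95% interval 0.20 to 1.06) did not pass (limma adjusted p = 0.0619). DESeq2 on the recovered reads called it (adjusted p = 0.0322), within a range of 0.00144 to 0.575 over the alternatives. The ratio of Lrp5 to Lrp6 was 0.745, 0.885, 0.760 and 1.02 in the VC libraries and 0.986, 1.15, 1.36 and 1.53 in the AP libraries. Only AP.1 and VC.4 crossed, and the log2 difference of 0.55 had p = 0.0571 by an exact 2-sided permutation test (adjusted over 5 ratios 0.190), where 0.0286 is the smallest p that 4 against 4 libraries allow.

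Transcript length has to be read beside these values, because differences between the groups ran with it. Among 11255 genes with a mean of at least 50 normalized counts, the median log2 fold change was -0.32 for longest transcripts under 2000 nt, -0.05 from 2000 to 4000 nt, 0.20 from 4000 to 6000 nt, 0.38 from 6000 to 8000 nt and 0.52 from 8000 nt. The longest transcripts of Lrp5 and Lrp6 have 8893 and 9368 nt, and those of Rspo1, Rspo3 and Rspo4 have 1834, 3085 and 2371 nt. With a trend on the longest transcript removed per library, Lrp5 stood at 0.72 (limma adjusted p = 0.0264) and Lrp6 at 0.15 (adjusted p = 0.575). With a trend on the median transcript instead, an alternative chosen after seeing the data, Lrp5 stood at 0.81 (adjusted p = 0.0183) and Lrp6 at 0.53 (adjusted p = 0.0991), so how much of the Lrp6 difference goes with length depends on the length used. Among the R-spondins, Rspo1 stood at -1.34 (adjusted p = 0.0192), Rspo3 at -1.47 (adjusted p = 0.0231) and Rspo4 at -1.25 (adjusted p = 0.0502) for the longest transcript and -1.41, -1.56 and -1.52 for the median transcript. The longest-transcript trend left Lgr6 at 0.63, Lgr5 at 0.29, Znrf3 at 1.14 and Rnf43 at 0.21, none of which passed.

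**Figure D2:**
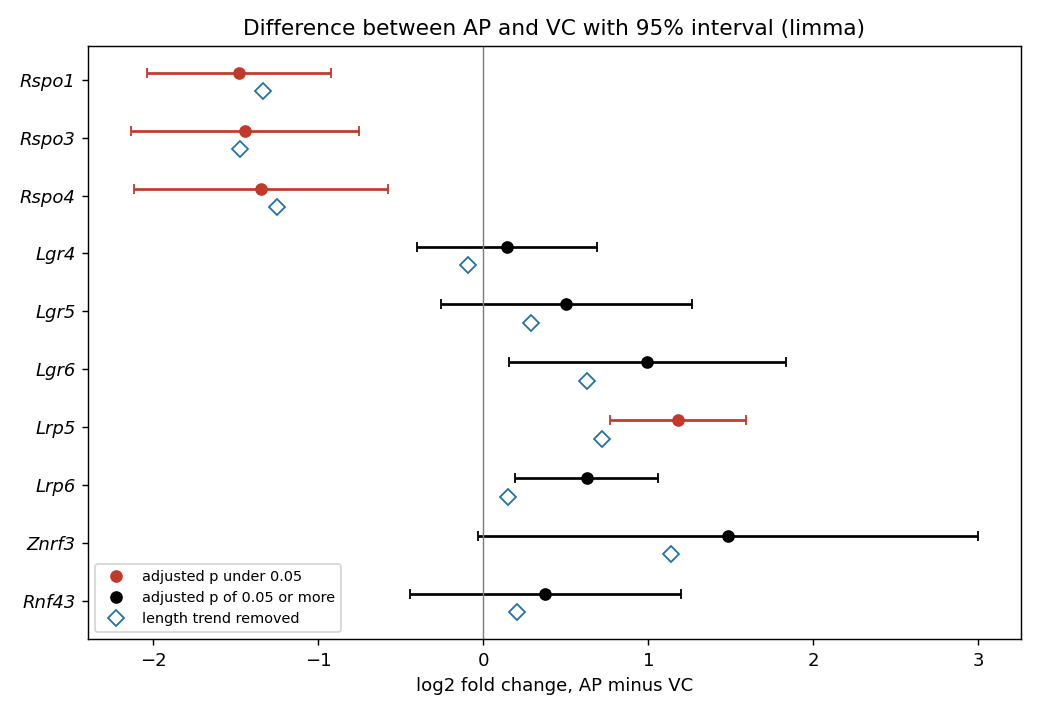
Log2 fold change of each gene, AP minus VC, with its 95% interval from limma (circles, red where the adjusted p is under 0.05) and the value after a trend on the length of the longest transcript was removed (diamonds). The R-spondins lie between -1.48 and -1.34 and Lrp5 at 1.18, and Lgr4 changes sign between circle and diamond. Under total-count scaling the R-spondins stay below 0 but do not pass the test.

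Znrf3 (ENSMUSG00000041961, chr11:5276324-5444847, minus strand), a membrane ligase, had 9.10, 117, 145 and 31.9 normalized counts across VC and 98.6, 132, 177 and 147 across AP. VC.1 rested on 5 reads, VC.4 was low as well, and VC.2 and VC.3 lay within the AP range. The difference of 1.48 on the log2 scale of value plus 1 had an SE of 0.69 and did not pass (95% interval -0.03 to 3.0, limma adjusted p = 0.173). On the recovered reads it was 0.84 by edgeR and 0.87 by DESeq2. It was 0.72 without VC.1 and 2.01 without VC.3.

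Rnf43 (ENSMUSG00000034177, chr11:87662722-87735539, plus strand), the related ligase, had 94.6, 87.2, 162 and 41.3 normalized counts across VC and 85.6, 115, 157 and 102 across AP. The groups overlapped except for the low VC.4, and VC.3 was the highest of all libraries. The difference of 0.38 (SE 0.37, 95% interval -0.45 to 1.20) did not pass (limma adjusted p = 0.527), and it was 0.03 without VC.4, 0.21 without AP.3 and 0.68 without VC.3. The ratio of Znrf3 to Rnf43 was 0.0962, 1.34, 0.891 and 0.773 in the VC libraries and 1.15, 1.14, 1.13 and 1.43 in the AP libraries. AP libraries were close together and VC.1 stood far below, and the log2 difference of 1.11 did not pass (exact 2-sided permutation test, p = 0.114, adjusted over 5 ratios 0.190). Without VC.1 it was 0.31.

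Levels of different genes were compared per kilobase of the longest transcript. In VC, Rspo1 was highest at 166 ± 41.6 normalized counts per kb (SD, n = 4), followed by Lgr4 at 77.2 ± 25.9, Rspo3 at 56.8 ± 24.3, Lrp6 at 39.2 ± 6.59 and Lrp5 at 34.8 ± 4.32. Rspo4 at 26.5 ± 7.69, Lgr6 at 23.6 ± 12.9, Rnf43 at 22.4 ± 11.6, Lgr5 at 19.8 ± 7.95 and Znrf3 at 12 ± 10.4 made up the lower end. Only the steps from Rspo1 to Lgr4 and from Lrp5 to Rspo4 were larger than the larger SD of the neighbours.

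In AP the order of levels per kb was different. Lgr4 at 82.7 ± 17 and Lrp5 at 79.9 ± 17.5 (SD, n = 4) came first, without a step beyond their spread, and Lrp6 at 61.1 ± 15 and Rspo1 at 59.3 ± 15 followed, likewise close to each other. Lgr6 stood at 42.4 ± 10.5, above Rnf43 at 26.7 ± 7.12, Lgr5 at 26.1 ± 4.91, Znrf3 at 22.0 ± 5.19 and Rspo3 at 19.4 ± 3.44, and from Rnf43 to Rspo3 no step between neighbours was beyond their spread. Rspo4 was lowest at 10.2 ± 2.81. With the median transcript length in place of the longest, Rspo1 stayed first in VC and Rspo4 last in AP, but Lrp6 moved from rank 4 to rank 2 in VC and from rank 3 to rank 1 in AP, Lgr4 from rank 1 to rank 3 in AP, Rspo4 from rank 6 to rank 9 in VC and Lgr5 from rank 9 to rank 7 in VC. Most other genes moved by 1 rank in VC or AP.

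**Figure D3:**
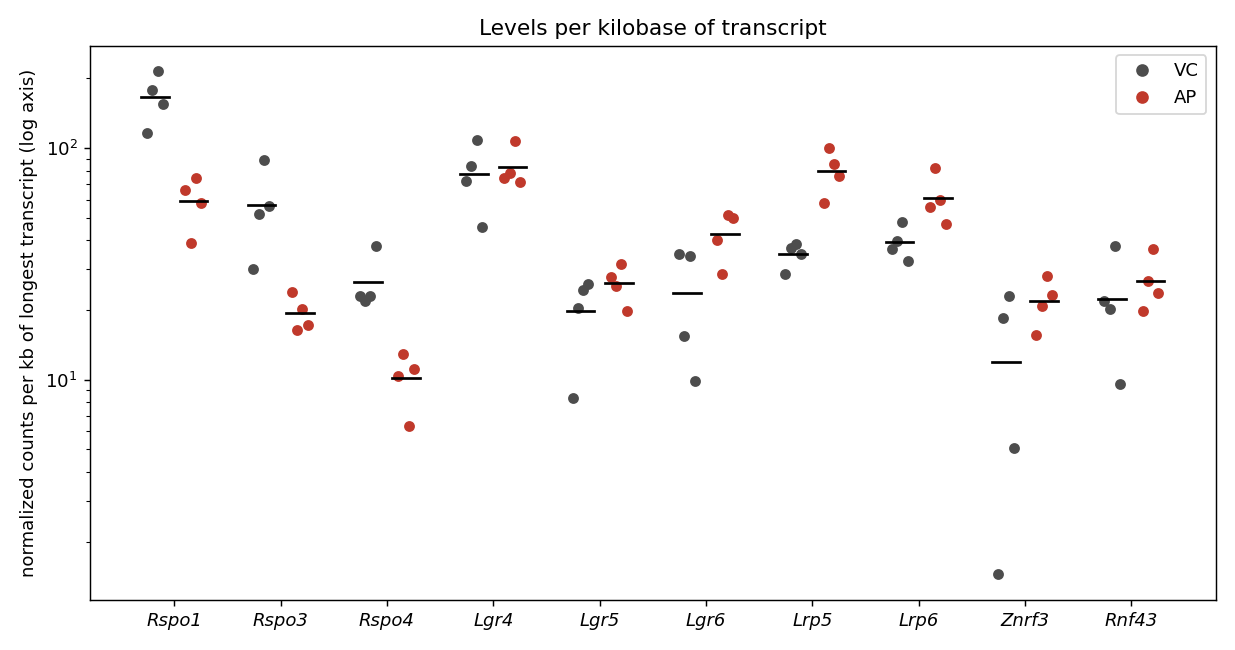
Normalized counts per kilobase of the longest transcript on a log axis, with 1 point per library, VC in grey, AP in red and a line at each group's mean. Rspo1 is highest in VC at a mean of 166, and in AP its mean of 59.3 lies under those of Lgr4, Lrp5 and Lrp6.

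Because Rspo1 and Rspo4 were lower together, the 250 bases before their starts are shown, from the RefSeq promoters of GRCm38.p6, in which 5 of the 10 genes matched. Rspo1 lies at chr4:124986180-124986429 and Rspo4 at chr2:151842677-151842926, both on the plus strand and printed 5′ to 3′. Capitals mark matches, on both strands, to the TCF/LEF motif ATCAAAG, the GC box GGGCGG, the TATA box TATAAA and the E-box CACGTG.
Rspo1: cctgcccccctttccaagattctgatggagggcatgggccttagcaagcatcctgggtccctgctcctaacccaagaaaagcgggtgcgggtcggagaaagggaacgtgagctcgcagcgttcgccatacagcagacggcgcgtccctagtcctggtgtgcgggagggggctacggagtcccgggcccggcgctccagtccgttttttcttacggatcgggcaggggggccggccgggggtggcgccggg
Rspo4: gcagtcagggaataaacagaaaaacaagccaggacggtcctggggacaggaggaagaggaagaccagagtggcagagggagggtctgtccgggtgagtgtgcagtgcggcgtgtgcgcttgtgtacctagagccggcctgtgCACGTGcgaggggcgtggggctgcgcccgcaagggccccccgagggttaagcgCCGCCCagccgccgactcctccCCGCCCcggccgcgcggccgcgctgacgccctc
The Rspo4 stretch holds 2 GC boxes and 1 E-box, which do not overlap, and the Rspo1 stretch holds none of the 4 motifs. GC content was 66.8% for Rspo1 and 69.6% for Rspo4. Among the other matched genes it was 65.2% for Lgr6, which held 1 GC box and was not lower in AP. It was 55.6% for Lgr4 and 44.4% and 45.2% for the promoters of Rnf43. Rspo3 was not among the matched genes. The median GC content was 52.4% over 32851 promoters. The TCF/LEF motif was in 3.21% of those promoters and in none of the 6 that belong to the 10 genes, while the GC box was in 32.7%, the TATA box in 12.4% and the E-box in 6.02%. A match is no more than these letters in this window.

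Other genes of the pathway give the setting. Over all genes and in either direction, 10.3% passed by limma, 10.8% by edgeR and 19.1% by DESeq2, and 30.3% had an unadjusted p under 0.05 by limma, and counts in the lists below have to be read beside these shares. Of 14 Frizzled and other Wnt receptors, which the ligases act on or which bind Wnt, 2 were higher and 0 lower (median 0.86), with Fzd1 at 1.05 (limma adjusted p = 0.0258) and Fzd4 at 0.99 (0.0483), while Ryk, the most abundant, stood at -0.08 (0.693). Of 7 tested antagonists of Lrp5 and Lrp6 and their receptors, Kremen1, a Dkk receptor, was higher at 0.85 (0.0386) and none was lower (median -0.34). The other Dkk receptor of the list, Kremen2, went the opposite way at -0.94 (0.101) without passing. Sostdc1 stood at 0.68 (0.122) and Apcdd1, the most abundant, at 0.68 (0.0508). In this list 4 genes had an unadjusted p under 0.05 by limma, of which Kremen2 was below 0. Of 21 genes of Lrp6 maturation and phosphorylation, the kinase gene Gsk3b was higher at 0.62 (0.0414) and the kinase gene Csnk1g2 lower at -0.56 (0.0282), and the median was 0.07, with Csnk1a1, the most abundant, at 0.53 (0.0689). Of 10 tested genes of the wider LDL receptor family, Lrp10 at 0.85 (0.0104) and Lrp1, the most abundant, at 1.19 (0.0225) were higher and none was lower (median 0.64). Of 14 beta-catenin feedback targets, which include Lgr5, Znrf3 and Rnf43, 0 were higher and 3 lower by limma (median -0.23, 5 with an unadjusted p under 0.05, of which Apcdd1 was above 0): Nkd2 at -0.96 (0.0151), Wif1 at -1.24 (0.0282) and Nkd1 at -0.75 (0.0342). Ccnd1, the most abundant of them in VC, stood at -0.43 (0.0722), while in AP Apcdd1 had the higher mean, at 1194 against 1005 normalized counts. With the trend on the longest transcript removed, Fzd4 at 0.62 (limma adjusted p = 0.184), Kremen1 at 0.64 (0.0797), Gsk3b at 0.18 (0.454), Lrp1 at 0.57 (0.194) and Wif1 at -1.14 (0.0505) no longer passed, while Ccnd1 at -0.54 (0.0489) and Dvl2 of the Lrp6 list at -0.64 (0.0406, from -0.40 and 0.107) came to pass. On the recovered reads edgeR called 3, 1, 2, 2 and 3 genes of these lists, in the order given, and DESeq2 4, 3, 3, 3 and 5.

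Markers of the tissue were present in all libraries. Fibroblast genes had a median of 0.28 with 0 of 10 called by limma and edgeR, 1 by DESeq2 and 3 at an unadjusted p under 0.05, counts near the shares over all genes, and their summed normalized counts ran from 82250 to 224340 in VC and from 98853 to 255919 in AP. Bulge and hair germ genes had a median near 0 with the same numbers called by each, led in abundance by Krt15. Of 10 dermal papilla genes 2 were lower, Crabp1 at -2.17 (limma adjusted p = 0.0167) and Alx4 at -1.37 (0.0404). The median was -0.57, with 1 called by edgeR, 3 by DESeq2 and 4 at an unadjusted p under 0.05. Crabp1 was the most abundant by the mean over all libraries, with 471, 535, 602 and 2254 normalized counts across VC. In AP, Sox18 had the higher mean, at 368 against 177 for Crabp1. The sums of the list were 2210, 2178, 2855 and 3501 in the VC libraries and 1233, 1222, 1626 and 1120 in the AP libraries, and the sum of VC.4 rests largely on Crabp1. The part of these values in the lower R-spondins was not tested, and fewer cells of a type cannot be told apart from less RNA per cell in such tissue.

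Markers of epidermis moved with the groups, although that layer had been taken off. Of 16 suprabasal genes 10 were higher and 0 lower (median 2.80), led in abundance by Krt10, which had 2376 normalized counts in VC and 38536 in AP on average. Their sums were 6821, 13557, 9572 and 6358 in the VC libraries and 44769, 42498, 124707 and 174133 in the AP libraries, and no gene of the list was at the floor in a group. Of 9 basal keratinocyte genes 5 were higher (median 1.11, Krt14 most abundant), with sums of 25563, 80738, 49180 and 23149 in VC and 53697, 55928, 100666 and 144830 in AP. With the length trend removed 4 of the 5 no longer passed: Col17a1 at 1.44 (from 1.73, limma adjusted p = 0.0572), Lama3 at 1.37 (from 1.89, 0.0743), Dst at 0.83 (from 1.56, 0.0700) and Itgb4 at 0.77 (from 1.11, 0.108). The median of the basal list relative to all genes was 1.05 before that step and 1.06 after it. Of 6 upper follicle genes 4 were higher (median 1.13, Krt79 most abundant), with sums of 3755, 8970, 4307 and 3838 in VC and 7679, 7365, 9455 and 8468 in AP. These are the cells in which Lgr6 is best known, and their part in the values of Lgr6 and Lrp5 was not tested.

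Of 8 endothelial genes 2 were higher (median 1.31, 1 called by edgeR and 5 by DESeq2). By mean Vwf was the most abundant in VC, at 497 normalized counts, and in AP it was close to Pecam1, at 1203 against 1214. With the length trend removed 1 of the 2, Cdh5, no longer passed with a fold about as large, at 1.61 from 1.75 (limma adjusted p = 0.0613). Cldn5 came to pass at 1.09 (limma adjusted p = 0.0441). The sums of the endothelial list were 1519, 1558, 2299 and 2394 in VC and 3600, 7716, 2779 and 3349 in AP. Of the other marker lists, 4 of 7 melanocyte genes (median -0.83) and 3 of 6 Schwann cell genes (median -0.71) were lower. With the length trend removed 1 of the melanocyte genes, Pmel, lost its call with a fold about as large, at -1.24 from -1.35 (limma adjusted p = 0.0862). None passed by limma or edgeR among 7 hair matrix, 8 adipocyte, 8 skeletal muscle and 8 leukocyte genes, with medians of -0.33, 0.05, -1.65 and -0.49, with 2, 1, 5 and 4 genes at an unadjusted p under 0.05 and 1, 0, 0 and 1 called by DESeq2. The 2 hair matrix genes at that unadjusted p, Krt71 at 2.01 and Foxn1 at 1.59, lay above 0, against their list's median. The adipocyte gene Plin1 at 1.03 and, among the 4 leukocyte genes, Cd3e at 1.18 also lay above 0. The sums of the skeletal muscle list were 40634, 63897, 33219 and 32067 in VC and 67501, 8067, 4858 and 10120 in AP. AP.1 thus had the highest muscle sum of all libraries, against the list's median. Of 12 mitochondrially encoded genes tested 10 were lower by limma (median -3.38), and edgeR and DESeq2 each called all 12. The most abundant, mt-Co1, stood at -3.37 and did not pass by limma (adjusted p = 0.180), and mt-Atp8 was at the floor in AP. The summed normalized counts of the mitochondrial list were 7177370, 4538810, 3726460 and 6325940 in VC and 686247, 459218, 296618 and 655318 in AP. The part of these shifts in the lower R-spondins and the higher Lrp5 was not tested.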

How the data were processed

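The authors cleaned the reads and aligned them to mm10 with STAR. The methods name featureCounts for counting, and the submitters' processing notes list HTSeq. The deposited signal values are gene-level reads, each library divided by its own DESeq2 size factor. Other deposited columns hold the authors' DESeq2 comparison (mean, fold change, its error, statistic and p-values) and were not used. All 150160 values came out as whole reads within 0.1 read, so reads could be recovered.

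Genes that reached 3 normalized counts in 4 or more of the 8 libraries were tested with limma 3.58.1 (R 4.3.3) on log2(value + 1), with an intensity trend and Benjamini-Hochberg adjustment over 15964 genes. edgeR 4.0.16 (quasi-likelihood) and DESeq2 1.42.0 on recovered reads, voom, other pseudocounts, filters and scalings, a loess correction for transcript length (span 0.3, GENCODE M21 lengths), non-mitochondrial reads drawn down to 3080758 per library and each library left out were alternatives. On the recovered reads edgeR called 992 genes higher and 737 lower. Replicates differed by a chi-square of 15.8 to 78.9 per degree of freedom, so p-values measure the spread between samples. Steps were tested on simulated data. The genes and lists were chosen with earlier results of these data known. All 10 genes are named. Of every other list, up to 4 genes called, or the 2 with the smallest p, and the gene most abundant by the mean over all libraries could be named. Further genes are named where a group, an alternative or a gene of the opposite direction changed the reading.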

Additional observations from a re-analysis of the deposited data

Results flagged for a closer look

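Rspo4 in VC.4 stood apart from the other VC libraries, at 90.0 normalized counts against 51.7 to 54.6, with a gap of 0.902 of the group's range on the log2 scale. Chance gives about 1 such library in 20 groups, and 20 groups were looked at. Without VC.4 the difference in Rspo4 was -1.16 (limma adjusted p = 0.0718, range 0.00196 to 0.251 over the alternatives).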

How the results depend on the processing

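Of 230 values of the 10 genes under the alternatives, 205 kept both their direction and their side of the threshold, 15 lost the call, 7 gained it and 3 changed sign, all of these in Lgr4 (-0.092 with the length trend removed, -0.13 with the trend on the median transcript, an alternative chosen after seeing the data, and -0.086 to 0.33 with a library left out). For the lists, the SD is that of a list's mean log2 value between libraries, pooled over both groups. Leaving out a library moves a group's mean by less than this SD, so the next count says little of stability. This holds most for lists with a wide spread, such as skeletal muscle (SD 1.35). Of 152 list medians relative to all genes with a library left out, 146 moved by less than 1 SD and 6 by more. These 6 were the antagonists (-0.40) at -0.60 without VC.2, -0.097 without VC.4 and -0.21 without AP.4, Lrp6 maturation and phosphorylation (0.01) at 0.12 without VC.1 and -0.095 without AP.3, and the LDL receptor family (0.58) at 0.33 without VC.4. Within 1 SD, fibroblasts (0.22) ran from 0.023 without AP.1 to 0.49 without VC.4, skeletal muscle (-1.70) from -2.56 without AP.1 to -1.24 without AP.3, hair matrix (-0.39) from -0.95 without VC.4 to -0.098 without VC.3, beta-catenin feedback targets (-0.29) from -0.34 without AP.3 to -0.14 without AP.2, adipocytes (-0.01) from -0.35 without AP.2 to 0.31 without VC.1, bulge and hair germ (-0.06) from -0.22 without AP.3 to 0.037 without VC.1, and dermal papilla (-0.63) from -0.83 without VC.4 to -0.42 without VC.1. With the length trend removed, an alternative for the lists chosen after seeing the data, 1 of 19 moved by more than 1 SD (Lrp6 maturation and phosphorylation, to -0.11), while feedback targets went to -0.12, fibroblasts to 0.098 and the LDL receptor family to 0.35. Scaling shifts all genes nearly alike, so it could hardly move these medians and says nothing of their stability. DESeq2 called 1677 genes higher and 1362 lower and 2 of the 10 genes higher. Without the intensity trend 376 were higher and 216 lower. Total-count scaling gave 8657 and 70, with 7 of the 10 genes higher and 0 lower by limma. Removing the length trend left 580 higher. At an adjusted p under 0.1 there were 1917 and 1381, and 2 of the 10 were higher. The p and fold limits in the paper's methods, applied here to limma (unadjusted p under 0.01 and fold over 1.5), gave 1319 and 850, with 2 of the 10 higher and 3 lower. With a library left out, the counts ran from 209 (without AP.3) to 1082 higher and from 94 (without AP.3) to 817 lower, and from 1 (without AP.2, AP.3 or AP.4) to 3 of the 10 genes lower. They were 585 and 261 without VC.1, 398 and 155 without AP.2, and 254 and 139 without AP.4. Log2 differences of ratios with a library left out ran from 0.45 to 0.66 for Lrp5 to Lrp6, 0.0038 to 0.76 for Lgr5 to Lgr4, 0.65 to 1.11 for Lgr6 to Lgr4, -0.15 to 0.076 for Rspo1 to Rspo3 and 0.31 to 1.53 for Znrf3 to Rnf43. The causes were not tested. No paired analysis was made, because by the study's description the groups were made up of separate mice. The fewest reads in a library were 5 for Znrf3, 22 for Lgr5, 22 for Rnf43 and 30 for Rspo4.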
